A study of Mus musculus with 5 samples.

Results

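Runx3-bound and H3K4me1-marked regions of IL-2-activated NKC were examined at 8 receptor genes, the nectin-binding receptors Cd226, Crtam, Tigit and Cd96 and the checkpoint receptors Havcr2, Lag3, Pdcd1 and Ctla4. They were chosen by the receptors they encode and not by a rule on their peaks, though earlier results of these data were known. They are 8 of 22350 protein-coding genes. A peak was given to a gene when it overlapped the annotated gene or its 20 kb flanks by at least 1 bp. By this rule the 8 genes held 18 of 11676 Runx3 peaks and 32 of 34204 H3K4me1 peaks, and no peak counted for more than 1 of the 8.

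The cells were splenic NK cells of ICR mice, an outbred stock, which the submitters purified by negative selection, cultured for 7 days with 1000 units/ml of human recombinant IL-2 and describe as NKp46 positive. The methods of the study also name a FACS sort for DX5+ cells in preparing NKC. Chromatin was precipitated with a polyclonal Runx3 antibody made in house in 2 libraries, with a monoclonal antibody to H3K4me1 in 1 library and with non-immune rabbit serum (NIS), the control, in 2 libraries. All 5 libraries came from the same stock of mice in the same activated state, so no genotype, treatment or time could be compared. The authors joined the reads and called 1 list of Runx3 peaks and 1 of H3K4me1 peaks against NIS. Each list holds positions on the mouse genome (build mm9) without heights, scores or read totals, and positions carry no replicate error. The counts below are descriptions of these lists, with no test.

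Cd226 (DNAM-1), Tigit and Cd96 recognise the poliovirus receptor and nectins on other cells. Cd226 activates NK cells, Tigit inhibits them, and Cd96 is a further receptor for the same ligands. Crtam binds the nectin-like protein Cadm1 and appears on activated NK cells and T cells. Tim-3 (Havcr2), Lag3, PD-1 (Pdcd1) and Ctla4 restrain activated lymphocytes. Runx3 is a Runt-domain transcription factor that binds the RUNX motif together with Cbfb, and H3K4me1 is a histone mark of enhancers that often flanks the bound site.

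A RUNX motif was taken as TGTGGT or TGTGGC or TGCGGT or TGCGGC on either strand. Of the 18 Runx3 peaks, 17 held at least 1, where 96.0% of all Runx3 peaks did. In the sequences below, read from the reference genome in the direction of each gene, the capitals mark RUNX motifs, and a motif on the opposite strand appears as its reverse complement, for example ACCACA for TGTGGT. The reference is not the ICR genome, so these are the letters of the build and not of the mice. The first set shows peaks at the starts of Crtam and Tigit. The stretch at chr9:40812651-40812680 runs over the first coding base of Crtam and the one at chr9:40812836-40812935 lies upstream of it. The stretch at chr16:43664353-43664452 lies upstream of Tigit, and all 3 are on the minus strand.
Crtam, first codon: gcacagccagcaTGTGGTggggagccctca
Crtam, upstream: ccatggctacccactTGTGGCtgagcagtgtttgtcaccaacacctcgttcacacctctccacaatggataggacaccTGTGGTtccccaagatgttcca
Tigit, upstream: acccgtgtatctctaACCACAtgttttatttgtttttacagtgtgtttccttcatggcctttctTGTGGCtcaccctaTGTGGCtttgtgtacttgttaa

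The second set shows peaks in which RUNX motifs lay close together. For Pdcd1 these are chr1:95931848-95931947, downstream of the gene, with chr1:95936975-95937074 and chr1:95944771-95944870 in introns. For Cd96 and Lag3 they are chr16:46022451-46022550 and chr6:124851298-124851397, downstream of each gene. All 5 are on the minus strand and hold 2 to 4 RUNX motifs within 100 bp.
Pdcd1, downstream: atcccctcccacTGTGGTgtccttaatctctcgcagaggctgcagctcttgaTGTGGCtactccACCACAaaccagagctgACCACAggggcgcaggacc
Pdcd1, distal intronic peak: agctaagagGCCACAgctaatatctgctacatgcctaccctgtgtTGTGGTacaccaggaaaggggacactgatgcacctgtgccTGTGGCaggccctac
Pdcd1, proximal intronic peak: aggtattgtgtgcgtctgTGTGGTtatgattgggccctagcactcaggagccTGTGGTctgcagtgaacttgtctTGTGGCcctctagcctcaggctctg
Cd96, downstream: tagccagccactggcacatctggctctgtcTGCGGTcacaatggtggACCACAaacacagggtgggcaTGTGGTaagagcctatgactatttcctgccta
Lag3, downstream: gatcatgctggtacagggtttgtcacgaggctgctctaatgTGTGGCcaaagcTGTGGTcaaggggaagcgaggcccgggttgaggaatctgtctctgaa

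The third set shows intronic peaks in which a RUNX motif had an ETS motif close by. ETS motifs were searched as AGGAAA or AGGAAG or CGGAAA or CGGAAG on either strand, and are in lower case here except for a base shared with a RUNX motif. The stretches are chr11:46280471-46280570 and chr1:60968618-60968717 on the plus strand and chr6:124860606-124860705 on the minus strand. In the order below, 4, 4 and 8 bp separated the nearest such motifs of each peak that did not overlap each other. In the Ctla4 stretch another ETS motif shares a base with the first RUNX motif.
Havcr2, intron: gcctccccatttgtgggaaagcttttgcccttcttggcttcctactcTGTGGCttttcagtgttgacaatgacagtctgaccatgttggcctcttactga
Lag3, intron: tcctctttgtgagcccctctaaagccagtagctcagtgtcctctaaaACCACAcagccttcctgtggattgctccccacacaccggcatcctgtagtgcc
Ctla4, intron: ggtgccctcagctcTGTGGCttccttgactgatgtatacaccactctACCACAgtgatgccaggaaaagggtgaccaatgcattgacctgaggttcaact

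Every one of the 8 genes had a Runx3 peak in its window, and every one had an H3K4me1 peak. The same held for 41.1% and 51.1% of protein-coding genes, respectively. Havcr2, Pdcd1 and Ctla4 had 3 Runx3 peaks each, Crtam, Tigit, Cd96 and Lag3 had 2 each, and Cd226 had 1. So 7 of 8 had 2 or more, against 18.1% of protein-coding genes, and 3 of 8 had 3, against 7.36% with 3 or more. The median was 2 Runx3 peaks per window for the receptors and 0 over all protein-coding genes. All 8 also had a Runx3 peak within the gene itself, as did 23.2% of protein-coding genes.

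**Figure D1:**
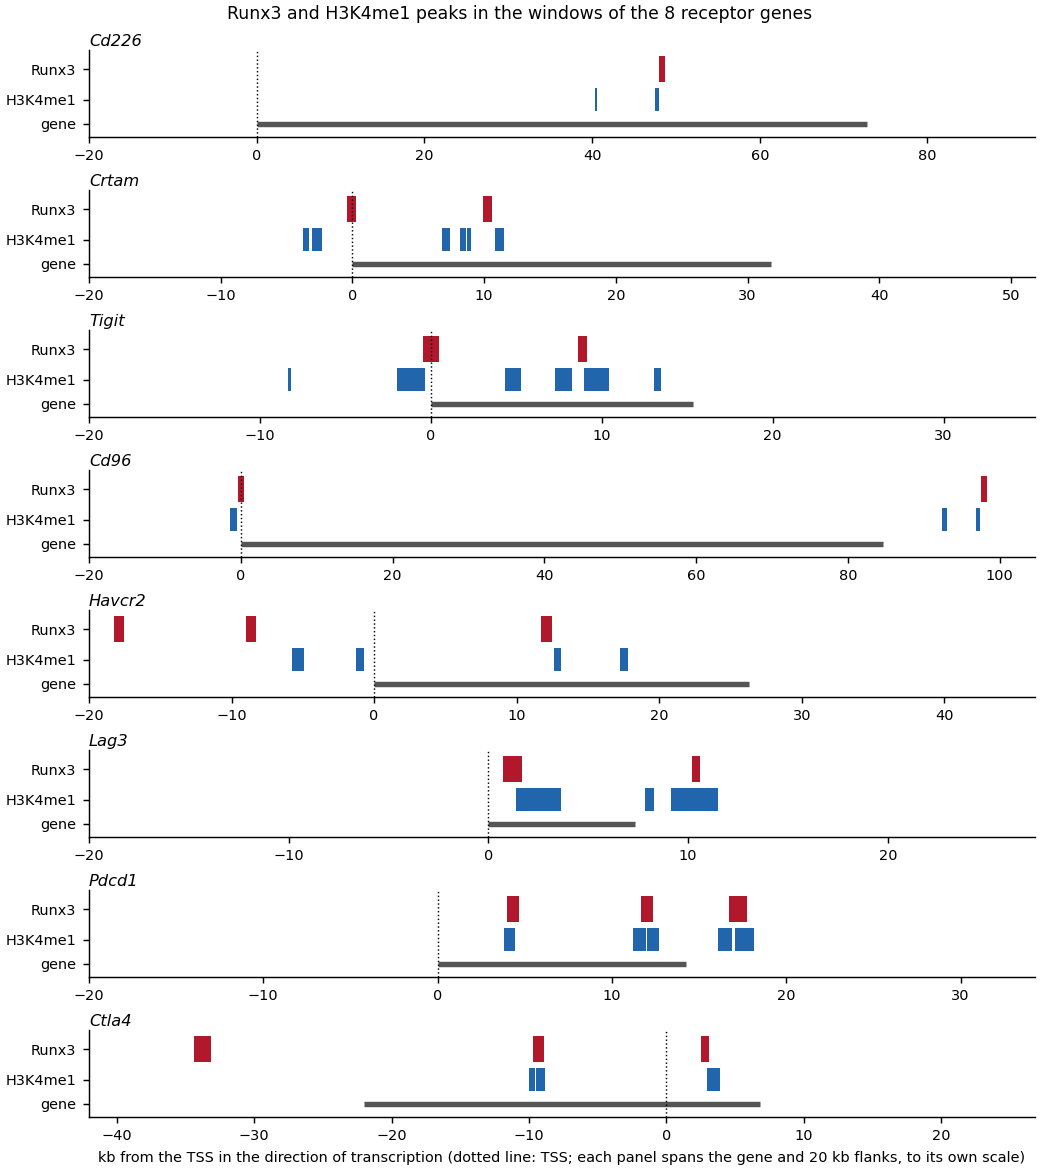
Runx3 peaks (red) and H3K4me1 peaks (blue) along each receptor gene (grey bar) and its 20 kb flanks, with kb from the transcription start site (TSS) on the x axis, to a scale of its own in each panel. Runx3 peaks sit on the TSS of Crtam, Tigit and Cd96, and those of Cd226, Pdcd1 and Lag3 lie inside or downstream of the gene.

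Windows differ in length because genes do, from 47.3 kb for Lag3 to 124.6 kb for Cd96, with a median of 67.6 kb against 55.4 kb for all protein-coding genes. Among the 12064 protein-coding genes with windows in that range, 46.8% had a Runx3 peak and 19.6% had 2 or more. Per 100 kb of window with 20 kb flanks, Pdcd1 had the most Runx3 peaks, 5.53, followed by Havcr2 with 4.52, Ctla4 with 4.36 and Lag3 with 4.22. Tigit had 3.62 and Crtam 2.79. The lowest densities were those of the long genes Cd96, 1.61, and Cd226, 0.887. This order depended on the flank. Within the gene alone Lag3 had 13.6 and Tigit 13.1 per 100 kb, just under Pdcd1, and with 50 kb flanks Tigit came first with 5.20, followed by Pdcd1 with 2.63.

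H3K4me1 gave another order. Crtam and Tigit had 6 H3K4me1 peaks each, Pdcd1 5, Havcr2 4, Cd96, Lag3 and Ctla4 3 each, and Cd226 2. The receptors' median was 3.50 per window and that of all protein-coding genes 1.00. H3K4me1 peaks covered 10.6% of the Lag3 window, 10.1% of the Tigit window and 7.19% of the Pdcd1 window, but 1.62% of the Cd96 window and 0.674% of the Cd226 window. The 3 widest H3K4me1 peaks of the receptors were 2326 and 2251 bp at Lag3 and 1645 bp at the Tigit start, where the median over the 32 was 638 bp and over the whole list 689 bp.

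**Figure D2:**
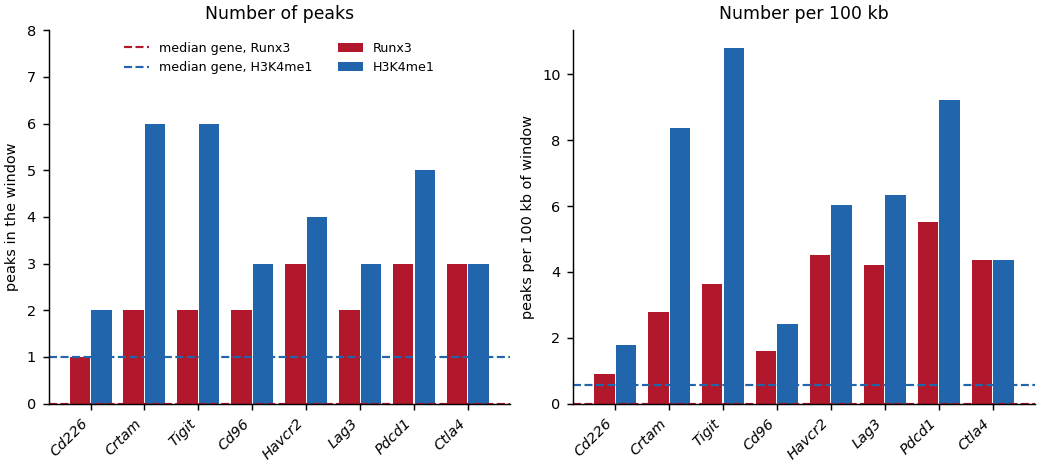
Runx3 (red) and H3K4me1 (blue) peaks in the window of each receptor gene, as numbers (left, y axis in peaks) and per 100 kb of window (right), with dashed lines for the median protein-coding gene. The Runx3 bars run from 1 to 3 peaks and the H3K4me1 bars from 2 to 6, and both medians, 0 and 1.00, are below the lowest bar of their kind.

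Crtam, Tigit and Cd96 each had a Runx3 peak centred almost exactly on the TSS, and Cd226 and the 4 checkpoint genes had none within 1 kb of the TSS of their main coding transcript. The centres were 32 bp upstream for Crtam and 22 and 50 bp downstream for Tigit and Cd96. A peak within 1 kb of any annotated TSS of the gene was found at 4 of 8 receptors, with Lag3 added, and at 13.3% of protein-coding genes. At the Crtam start the central RUNX motif lay in the coding exon with all 6 bases, next to the base at which the annotation starts both the transcript and the protein, so its true TSS may lie further upstream than the annotation has it.

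At these 3 starts H3K4me1 stood on the upstream side. Around the Tigit start an H3K4me1 peak of 1645 bp at chr16:43664609-43666253 reached into the Runx3 peak over 149 bp, or 15.5% of its width, and began 334 bp upstream of the Runx3 centre. The Cd96 start had an H3K4me1 peak of 860 bp that began 556 bp upstream of the Runx3 centre and did not touch the Runx3 peak. The nearest one upstream of the Crtam start was 2303 bp from the Runx3 centre. No H3K4me1 peak covered the TSS of any of the 3 genes.

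Tigit, the inhibitory nectin receptor, had a Runx3 peak of 964 bp at its start (chr16:43663794-43664757) with 7 RUNX motifs, the most of the 18 peaks. Its other peak (chr16:43655159-43655664, 506 bp), in an intron 8886 bp downstream of the TSS, was the only one of the 18 without a RUNX motif. It held 2 ETS motifs and 1 AP-1 motif, and its centre lay in a gap between H3K4me1 peaks 95 bp to the downstream side and 636 bp to the upstream side. No other receptor gene held as many Runx3 peaks just outside its window. A group of 4 lay 25808 to 37783 bp upstream of Tigit, and Tigit was the protein-coding gene with the nearest TSS for all 4.

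Crtam, a receptor that promotes adhesion and cytotoxicity of activated NK cells, had a peak at its start (chr9:40812360-40813042, 683 bp) with 3 RUNX motifs and 1 in an intron 10256 bp downstream (chr9:40802050-40802777, 728 bp). The intronic peak held a lone RUNX motif 305 bp from its centre, and 2 AP-1 motifs within the central 200 bp. It was the only member peak with AP-1 there, against 12.6% of all Runx3 peaks. The AP-1 motif of the downstream Cd96 peak lay 100 bp from its centre, at the edge of that stretch. The intronic Crtam peak lay between H3K4me1 peaks whose edges were 588 and 1217 bp from its centre. Of the 6 H3K4me1 peaks of Crtam, 4 were in introns and 2 upstream, and none touched a Runx3 peak.

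Cd96, a nectin-binding receptor of NK cells and T cells, had a Runx3 peak at its start (chr16:46119894-46120735, 842 bp) with 2 RUNX and 7 ETS motifs, and 1 beyond its 3′ end (chr16:46022103-46022886, 784 bp), 97870 bp from the TSS. Nothing was marked along the 84595 bp of the gene apart from the Runx3 peak at its start. The downstream peak had 3 RUNX motifs, all in the central 200 bp, and an H3K4me1 peak 481 bp from its centre. It was nearer to the small RNA gene U6 (4208 bp) and to the TSS of the protein-coding gene Plcxd2 than to the Cd96 TSS. It also lay within 20 kb of Plcxd2.

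Pdcd1, which encodes the inhibitory receptor PD-1, had each of its 3 Runx3 peaks on H3K4me1 and each of its 5 H3K4me1 peaks on a Runx3 peak. No other receptor gene had both. At Tigit and Lag3 all Runx3 peaks, 2 each, lay on H3K4me1, and at Ctla4 all 3 H3K4me1 peaks lay on a Runx3 peak. The Runx3 peaks of Pdcd1 were at chr1:95944445-95945135 and chr1:95936760-95937476, in introns 4340 and 12012 bp downstream of the TSS, and at chr1:95931399-95932440, downstream of the gene and 17211 bp from the TSS. They held 4, 5 and 6 RUNX motifs. H3K4me1 covered 65.6%, 90.2% and 81.9% of them in the same order. The middle peak bridged a gap of 70 bp between 2 H3K4me1 peaks and had its centre in that gap, and the downstream peak bridged a gap of 189 bp. The downstream peak was nearer to the TSS of Neu4, 13746 bp away, than to that of Pdcd1.

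Ctla4, the inhibitory receptor for Cd80 and Cd86, had 3 Runx3 peaks. The main coding transcript starts inside the annotated gene, which another transcript extends upstream. An intronic peak 2809 bp downstream of the main TSS (chr1:60968379-60968977, 599 bp) held 2 RUNX and 9 ETS motifs, the most ETS motifs of the 18, and H3K4me1 over 28.9% of its width. A peak 9287 bp upstream (chr1:60956195-60956969, 775 bp), in an intron of the longer transcript and 1160 bp from the pseudogene Rpl18-ps1, bridged a gap of 116 bp between H3K4me1 peaks that covered 85.0% of it. The third, 33754 bp upstream of the main TSS (chr1:60931524-60932707), was the widest of the 18, 1184 bp, and had its nearest H3K4me1 peak 11320 bp from its centre.

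Lag3, a receptor for MHC class II, had a Runx3 peak of 977 bp in an intron 1212 bp downstream of its main TSS (chr6:124860023-124860999) and 442 bp from that of another transcript. H3K4me1 covered 31.2% of it and extended into the gene. A narrow peak of 431 bp, the narrowest of the 18, lay downstream of Lag3 (chr6:124851110-124851540, 10398 bp from the TSS) entirely inside an H3K4me1 peak of 2326 bp. It held RUNX motifs 6 bp apart. This peak also fell within 20 kb of the neighbouring gene Cd4, as well as of Ptms and A230083G16Rik, so the window rule does not tell these genes apart. The same limit applied to 11 of the 18 Runx3 peaks, which were also in the window of another protein-coding gene. Among them were all 3 at Pdcd1 (Neu4), both at Crtam (Ubash3b), both at Lag3 and the intronic peak of Tigit (Zbtb20). The share of all Runx3 peaks that lie in several such windows was not counted.

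Havcr2, which encodes Tim-3, was the checkpoint gene without any Runx3 peak on H3K4me1. Its intronic peak (chr11:46280126-46280889, 764 bp) was 12070 bp downstream of the TSS, held 2 RUNX and 5 ETS motifs and had an H3K4me1 peak 518 bp from its centre. The other 2 were upstream and nearer to the annotated TSSs of other genes. The peak 17908 bp upstream (chr11:46250165-46250893) was centred 22 bp from the TSS of Med7, a Mediator subunit gene, and its RUNX motif was TGCGGT. The peak 8646 bp upstream (chr11:46259457-46260126) was in an intron of 2310031A07Rik, 959 bp from its TSS. Among protein-coding genes alone, Havcr2 had the nearest TSS to this peak. Havcr2 itself had an H3K4me1 peak centred 1007 bp upstream of its TSS and no Runx3 peak there.

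Cd226, the activating receptor that competes with Tigit and Cd96 for ligand, had the fewest peaks. Its only Runx3 peak (chr18:89414844-89415547, 704 bp) was in an intron 48372 bp downstream of the TSS and held 2 RUNX motifs, both TGTGGC, with 1 of them 3 bp from the peak centre. An H3K4me1 peak ended 421 bp from that centre without touching the Runx3 peak, and the other H3K4me1 peak lay 40446 bp downstream of the TSS. With 41.1% of protein-coding genes having 1 or more Runx3 peaks, Cd226 was not set apart by its count.

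Overlap with H3K4me1 was spread unevenly over the receptors. Of the 18 Runx3 peaks, 9 overlapped an H3K4me1 peak by at least 1 bp, and 48.4% of all Runx3 peaks did. These 9 were 2 of 7 peaks at nectin-binding genes, both at Tigit, and 7 of 11 at checkpoint genes. Only Tigit, Lag3, Pdcd1 and Ctla4 had such a peak, 4 of 8 receptors, where 20.5% of protein-coding genes had one. Another 5 of the 9 peaks without overlap had H3K4me1 within 1 kb of their edges. Counted with that distance, 14 of 18 were near H3K4me1, against 61.3% of all Runx3 peaks, and the receptor groups no longer showed the contrast, with 6 of 7 peaks at nectin-binding genes and 8 of 11 at checkpoint genes. Conversely, 12 of the 32 H3K4me1 peaks lay on a Runx3 peak, 2 of 17 at nectin-binding genes and 10 of 15 at checkpoint genes, and 19.9% of all H3K4me1 peaks did. These 12 touched only 9 Runx3 peaks, since 3 Runx3 peaks at Pdcd1 and Ctla4 each touched 2 H3K4me1 peaks. That raised the checkpoint count from 7 to 10.

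In 5 of the 9 overlapping peaks the centre itself was outside H3K4me1, and in 4 of the 18 it was inside, at Lag3, Pdcd1 (2 peaks) and Ctla4, where 28.2% of all Runx3 peaks had their centre inside H3K4me1. Peaks that touched 2 H3K4me1 peaks numbered 3, at Pdcd1 and Ctla4, against 11.4% of all Runx3 peaks. Peaks centred in a gap with H3K4me1 within 2 kb on both sides also numbered 3, at Crtam, Tigit and Pdcd1, against 13.9%. Both shares, each 16.7%, were close to those of the whole list.

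**Figure D3:**
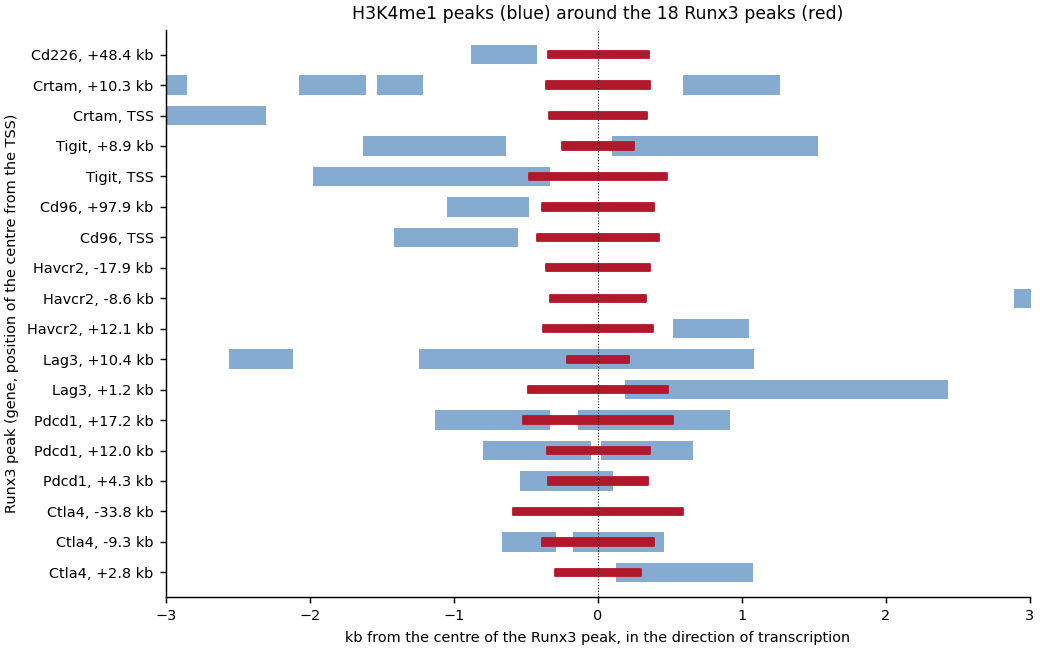
The 18 Runx3 peaks (red) aligned at their centres, with kb from the centre in the direction of transcription on the x axis, and the H3K4me1 peaks (blue) around them. Blue bars cross the dotted centre line in 4 rows, reach another part of the red bar in 5 rows, and stay upstream of it at the Crtam and Cd96 starts.

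Position relative to genes was mixed. Of the 18 Runx3 centres, 11 were inside the receptor gene, 9 of them in introns, 4 upstream and 3 downstream. The same split was not counted for all Runx3 peaks, and it depends on the window rule and on gene length. Centres within 1 kb of any annotated TSS numbered 6, against 25.3% of all Runx3 peaks, and 2 of the 6 were at the starts of genes other than the receptors, those near Havcr2. The median distance from the centre to the nearest TSS was 4274 bp for the 18 and 7642 bp for the whole list. Widths ran from 431 to 1184 bp with a median of 728 bp, against 704 bp.

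The 17 peaks with a RUNX motif held 54 in all, of which 30 read TGTGGT, 20 TGTGGC, 3 TGCGGT and 1 TGCGGC. By peak, TGTGGT was in 15 of 18, against 75.9% of all Runx3 peaks, and TGTGGC in 11 of 18, against 57.7%. TGCGGT was in 3 of 18, against 21.8%, and TGCGGC in 1 of 18, against 19.2%. The checkpoint genes had a median of 3 RUNX motifs per Runx3 peak and the nectin-binding genes 2, against 3 over all Runx3 peaks. In 15 of the 18 peaks a RUNX motif lay in the central 200 bp, against 77.0% of all Runx3 peaks. In 10 of 18 the motif nearest to the centre was at most 20 bp away from it. The share of all Runx3 peaks with a motif that near was not counted, so this is not set out as a trait of the receptors' peaks. ETS motifs were in 17 of 18 peaks, against 91.4%, the exception being the Pdcd1 peak 4340 bp from the TSS. AP-1 motifs, searched as TGACTCA or TGAGTCA on either strand, were in 4 of 18, against 26.2%, and all 4 were at nectin-binding genes, Crtam, Tigit (2 peaks) and Cd96.

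Motifs were also examined in pairs, counted where 0 to 50 bp separated motifs that did not overlap each other. A RUNX motif paired with another in 8 of 18 peaks, against 45.6% of all Runx3 peaks, with 6 to 27 bp between the closest pair of each peak. An ETS motif paired with a RUNX motif in 11 of 18, against 59.2%. No member peak had an AP-1 motif paired with a RUNX motif, where 12.7% of all Runx3 peaks did. The H3K4me1 peaks that lacked Runx3 were not free of RUNX motifs, which were found in 14 of 20 such peaks at the receptors and in 77.7% over the whole list.

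**Figure D4:**
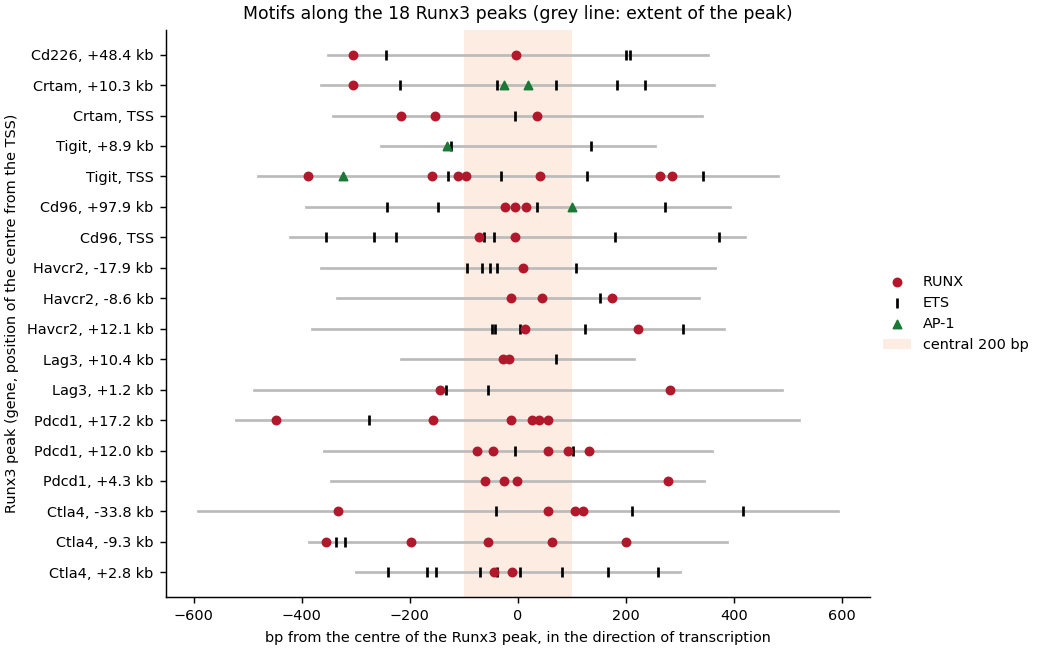
RUNX (red circles), ETS (black ticks) and AP-1 motifs (green triangles) along the 18 Runx3 peaks, with bp from the peak centre in the direction of transcription on the x axis and the central 200 bp shaded. RUNX motifs fall in the shaded band in 15 rows, the Tigit intron peak has none, and AP-1 motifs appear in 4 rows.

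Genes that act with the receptors were counted by the same rule, by which 41.1% of all protein-coding genes had a Runx3 peak with a median of 0. Of 6 nectin and nectin-like ligand genes, 3 had a Runx3 peak, Pvrl2 (nectin-2) with 2 and Pvr and Pvrl4 with 1 each, and Pvrl1, Pvrl3 and Cadm1 had none. Of 10 ligand genes of the checkpoint receptors, 5 had one, and both shares were near that of all protein-coding genes. Lgals3, a galectin that binds Lag3, had 5 and Pdcd1lg2, the PD-1 ligand PD-L2, had 4, and Lgals9, Ceacam1, Hmgb1, Fgl1 and Clec4g had none. Ligands are made by the cells that NK cells meet, although several are made by lymphocytes too.

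All 10 genes of signal proteins on which the receptors draw had a Runx3 peak, with a median of 3 per gene. Prkch, a protein kinase C, had 10 in a window of 233.4 kb, or 4.28 per 100 kb. Fyn, a Src-family kinase, had 4 in 236.5 kb, the same number as Grb2 and Inpp5d. Among 15 further co-receptor genes, 9 had a Runx3 peak, with 5 each at Cd244 and Klrg1, receptors of NK cells. Btla, Lair1, Havcr1, Timd2, Tnfrsf14 and Cd101 had none. Of the other Tim-family genes, Timd4 had 1 Runx3 peak and Havcr1 and Timd2 had none, where Havcr2 had 3.

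Peak lists hold no expression, so the identity of the cells was examined only by where Runx3 was bound. All 4 NK cell marker genes, Ncr1, Klrb1c, Itga2 and Klrk1, had Runx3 peaks, 2 to 5 each, where 41.1% of all protein-coding genes had at least 1. Of 5 T cell markers, 3 had Runx3 peaks, the adjoining genes Cd3d, Cd3e and Cd3g, and Cd8a and Cd8b1 had neither Runx3 nor H3K4me1 peaks. Of 3 B cell markers, 2 had Runx3 peaks and Ms4a1 had none, and of 3 myeloid markers, 2 had Runx3 peaks and Lyz2 had none. The part of other cells in the receptors' peaks was not tested.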

How the data were processed

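ChIP-seq was done by the authors on IL-2-activated splenic NKC. Reads of 40 bp were aligned to mm9 with ELAND, uniquely aligned reads were kept, and MACS called peaks on joined reads against NIS after scaling the larger read set down. The deposited lists give the 2 ends of each region and nothing on single libraries or signal. Totals of aligned reads are stated in the methods of the study, and the depth behind a given peak cannot be read from the lists. Coordinates were shifted to a count from 1.

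Peaks on the 19 autosomes and chromosome X were compared with GENCODE M1 genes and the sequence of the same build. The TSS of a receptor was that of its longest transcript with a CCDS entry. A motif match is a description of letters in the reference. The receptors, the related lists and the motifs were chosen with earlier results of these data known. Other genes were named where they held the centre or nearest TSS of a receptor's peak, or had the most Runx3 peaks (2 per related list, ties by symbol) or none in a list of related genes. Genes named for sharing a window (Cd4, Ptms, A230083G16Rik, Plcxd2, Ubash3b, Zbtb20), genes tied in a list (Pvrl4, Grb2, Inpp5d), the Tim-family gene Timd4 and the peaks outside the Tigit window were chosen after their values were seen. The window, overlap and motif steps were tested on simulated data. Calculations used python 3.11.15, pysam 0.24.0, numpy 2.4.6, numba 0.67.0, samtools 1.23.1 and matplotlib 3.10.9.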

Additional observations from a re-analysis of the deposited data

How the results depend on the processing

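Each receptor had a Runx3 peak in the gene alone, as did 23.2% of protein-coding genes. This fixed the result in advance for flanks of 5 and 50 kb and for peak centres in the window. Each also kept one when peaks were given to the protein-coding gene with the nearest TSS up to 50 kb away. The shares of all protein-coding genes under these other rules were not counted. The number of Runx3 peaks was 12 for the gene alone, 14 with 5 kb and 24 with 50 kb flanks, and 19 by nearest TSS. By nearest TSS the counts per gene changed. Tigit had 6, Ctla4 3, Crtam, Havcr2, Lag3 and Pdcd1 2 each, and Cd226 and Cd96 1 each. H3K4me1 peaks numbered 19 for the gene alone and 49 with 50 kb flanks, where 32 were reported, and 7 of 8 receptors had one in the gene alone. Of the 9 Runx3 peaks that overlapped H3K4me1, 5 did so over at least 50% of their width and 4 at their centre, and 14 had H3K4me1 within 1 kb. The share of genes with a Runx3 peak was 32.9% over all annotated genes and 46.8% over genes with windows of similar length. Of 23 alternatives for a count, 18 stayed within 1.5 times the reported value and 5 did not. The 18 include those whose result was fixed in advance. Leaving out a Runx3 library was not possible, since peaks were called on joined reads. No paired analysis was possible because no value belongs to a single library and no test was made. By exact match, 82.9% (Havcr2) to 97.2% (Tigit) of the 40 bp stretches in the windows occurred once in the reference. Reads from the remainder may not have been placed uniquely, so peaks there could have been missed. Peak height, replicate error and other states of NKC were not analysed here.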
